A study of Mus musculus with 6 samples.

Results

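Spinal motor neurons (MNs) are specified by a small set of LIM-homeodomain transcription factors that act together with LIM-only and LIM-domain-binding proteins and with the homeodomain factor Mnx1 (Hb9). The 9 genes described here are *Isl1*, *Isl2*, *Lhx3* and *Lhx4* (LIM-homeodomain factors), *Lmo1* and *Lmo4* (LIM-only proteins), *Ldb1* and *Ldb2* (LIM-domain-binding cofactors) and *Mnx1*. They were chosen by name out of 34433 gene symbols in a gene-level expression table, and all 9 were found. A locus of the table can carry several symbols separated by commas, so each locus was split into its symbols. The locus with the highest value was kept for a symbol that had more than 1.

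The table compares MNs derived from mouse embryonic stem cells (mESCs) of the FVB/N background. Hb9 control MNs were wildtype for the mouse *Smn* gene (SMN2+/+;mSmn+/+) and A2 SMA MNs lacked it (SMN2+/+;mSmn-/-), and both therefore carried the human SMN2 transgene. Spinal muscular atrophy (SMA) is the motor neuron disease caused by loss of SMN. Embryoid bodies of both lines received 1 µM retinoic acid and 1 µM Smoothened agonist for 5 days, and 3 samples per genotype were sequenced. Cells were collected by FACS as GFP positive and propidium iodide negative, with eGFP driven by the Hb9 (*Mnx1*) promoter. Each genotype is a single mESC line, so genotype and line cannot be told apart.

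The authors' values are FPKM, a fragment count divided by exon length and by the mapped fragments of the library, with 1 value per genotype computed over its 3 samples. No replicate check, standard deviation or test could therefore be made from these values, and the table does not give the reads behind each value. The authors' own test for each locus was not used. The study reports *Mnx1* as not significantly different. It reports *Isl1* as lower in SMA MNs also by quantitative RT-PCR, in separate samples of these lines and in a second, unsorted pair of lines. In spinal cords of SMA mice it reports *Isl1* as lower in embryos and higher after birth. *Smn1*, the targeted gene, was at 137 FPKM in Hb9 control against 5.26 FPKM in A2 SMA MNs. A ratio is given as A2 SMA over Hb9 control on the log2 scale, without a pseudocount. Genes above 0 in both genotypes that reached 1 FPKM in at least 1 of them numbered 14926, and their median was -0.29 on that scale, which is 1.22-fold lower in A2 SMA MNs. Ratios are also given relative to that median gene.

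In a developing MN, Isl1 and Lhx3 are joined by the dimerizing cofactor Ldb1 into a complex that binds and activates MN genes. Ldb1 with Lhx3 alone forms the complex of V2 interneurons, the neighbours of MNs in the ventral spinal cord. LIM-only proteins have no DNA-binding domain and occupy the same surface of Ldb, and Mnx1 represses V2 interneuron genes in MNs.

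The promoters of 8 of the 9 genes were found in a RefSeq table of mouse promoters on GRCm38.p6, and *Ldb2* had no entry. The 250 bases before the start site are shown for *Isl1*, *Lhx3* and *Lmo1*, which were among the genes furthest from equal levels in these data, and for *Mnx1*, whose reporter was used to sort the cells. All 4 lie on the minus strand and are written 5′ to 3′ along the gene. They are chr13:116309689-116309938 for *Isl1*, chr2:26206576-26206825 for the first of the *Lhx3* starts, chr5:29478471-29478720 for *Mnx1* and chr7:109175208-109175457 for the second of the *Lmo1* starts. Capitals mark every match, on either strand, to 7 short motifs. The homeodomain core was searched as TAATTA. One E-box form was searched as CATCTG. The other E-box form was searched as CAGCTG. The nuclear receptor half-site was searched as AGGTCA, and the GC box was searched as GGGCGG. The last were the CCAAT box, searched by those letters, and the TATA box, searched as TATAAA. No 2 of these motifs share letters in the same place in the windows shown.
Isl1: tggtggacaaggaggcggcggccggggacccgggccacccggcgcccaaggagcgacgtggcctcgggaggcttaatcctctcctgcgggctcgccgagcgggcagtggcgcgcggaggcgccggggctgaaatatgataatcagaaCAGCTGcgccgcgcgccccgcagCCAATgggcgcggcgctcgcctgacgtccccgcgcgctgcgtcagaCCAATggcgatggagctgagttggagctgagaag
Lhx3: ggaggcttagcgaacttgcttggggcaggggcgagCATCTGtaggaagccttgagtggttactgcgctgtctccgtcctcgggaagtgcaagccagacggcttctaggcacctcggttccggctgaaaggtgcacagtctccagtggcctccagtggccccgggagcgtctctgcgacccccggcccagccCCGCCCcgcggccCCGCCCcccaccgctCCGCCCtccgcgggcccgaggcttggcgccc
Mnx1: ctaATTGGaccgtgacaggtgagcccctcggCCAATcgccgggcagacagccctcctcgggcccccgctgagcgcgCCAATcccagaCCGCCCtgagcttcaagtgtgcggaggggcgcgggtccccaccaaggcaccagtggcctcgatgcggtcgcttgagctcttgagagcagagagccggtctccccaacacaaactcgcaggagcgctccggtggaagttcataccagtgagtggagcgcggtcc
Lmo1: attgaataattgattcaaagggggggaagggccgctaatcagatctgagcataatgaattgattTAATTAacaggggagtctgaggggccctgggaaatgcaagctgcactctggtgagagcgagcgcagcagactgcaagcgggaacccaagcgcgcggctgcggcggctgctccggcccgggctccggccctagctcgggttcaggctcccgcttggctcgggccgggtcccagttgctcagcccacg

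The *Isl1*, *Lhx3* and *Mnx1* windows are rich in G and C. Their GC content was 71.2%, 70.8% and 66.4%, whereas the median of 32536 different promoter sequences of the same length was 52.4%. The *Isl1* window held 33 CG dinucleotides, and 95.9% of all promoters held fewer. It contained 1 CAGCTG, a motif found in 13.1% of all promoters, and 2 CCAAT, found in 33.8%. The *Lhx3* window shown held 1 CATCTG, found in 14.4% of all promoters, and 3 GC boxes, found in 33.0%. The motifs depend on the start chosen. The window of the second *Lhx3* start (62.0% GC) held no CATCTG, 2 GC boxes and 1 TATAAA, found in 12.3% of all promoters. The window of the first *Lmo1* start held 2 GC boxes, and the one shown held none. *Mnx1* had 1 GC box and 3 CCAAT boxes. The homeodomain core TAATTA occurs in 4.84% of all promoters, and among the 14 windows of the 8 genes it was seen in those of *Lmo1* only. AGGTCA (14.0% of all promoters) was in none of the 14. A match of letters is a description of the window and not evidence of binding.

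Levels of the LIM-homeodomain factors were far lower in A2 SMA MNs than in Hb9 control MNs, whereas *Mnx1* was at nearly the same level in both. Of the 9 genes, 7 were at least 2-fold lower in A2 SMA MNs and 0 were at least 2-fold higher. Among the 14926 genes, 22.4% were at least 2-fold lower and 6.83% at least 2-fold higher. The median log2 ratio of the 9 genes was -2.57, or -2.28 relative to the median gene, and -1.87 with a pseudocount of 1 FPKM. All 9 reached 1 FPKM in Hb9 control MNs and 6 of 9 did so in A2 SMA MNs. In sorted cells measured in bulk, fewer cells of a type and less RNA per cell cannot be told apart.

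**Figure D1:**
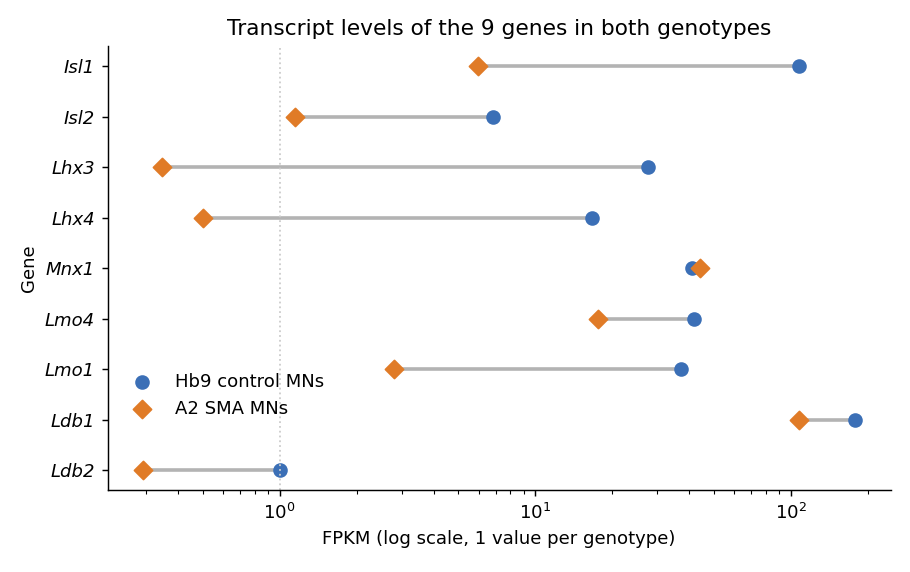
Transcript level in FPKM (log axis) of each of the 9 genes, with 1 authors' value for Hb9 control MNs (circles) and 1 for A2 SMA MNs (diamonds), joined by a line; the dotted line marks 1 FPKM. *Lhx3* has the longest line, from 27.6 to 0.348 FPKM, and the symbols of *Mnx1* (41.2 and 44.2 FPKM) overlap.

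*Isl1* encodes the factor that all spinal MNs express as they leave the cell cycle, and that MNs need to form. Its locus on chr13:117088480-117099896 (NCBI m37, as are all gene positions below) was at 108 FPKM in Hb9 control against 5.95 FPKM in A2 SMA MNs. That is 18.1-fold lower, a log2 ratio of -4.18, or -3.89 relative to the median gene. In Hb9 control MNs 91.8% of the 14926 genes lay below *Isl1*, and in A2 SMA MNs 34.1% did. It went from the 2nd highest of the 9 genes to the 4th.

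*Isl2*, a close relative of *Isl1* that appears later in postmitotic MNs, was much less abundant. The locus on chr9:55386479-55393987, which carries the symbols *Isl2* and *Isl2.1*, was at 6.85 FPKM in Hb9 control against 1.15 FPKM in A2 SMA MNs. Its ratio on the log2 scale of -2.57 (5.94-fold) was the nearest to 0 among the 4 LIM-homeodomain genes, and it was -1.87 with a pseudocount of 1 FPKM. *Isl1* exceeded *Isl2* by 15.8-fold in Hb9 control MNs and by 5.16-fold in A2 SMA MNs.

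*Lhx3*, the partner of Isl1 in the MN complex, had the lowest ratio of all 9 genes. The locus on chr2:26055732-26063809 was at 27.6 FPKM in Hb9 control against 0.348 FPKM in A2 SMA MNs. It was 79.3-fold lower, with a log2 ratio of -6.31, and 14 of the 14926 genes (0.0938%) had a lower one. The fold is taken over a level under 1 FPKM, and with a pseudocount of 1 FPKM the log2 ratio was -4.41. From a level above that of 61.9% of genes in Hb9 control MNs it passed to one above 2.31% of them in A2 SMA MNs.

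*Lhx4*, which shares the roles of *Lhx3* in early MNs, showed a similar pattern. Its locus on chr1:157545166-157598841 was at 16.7 FPKM in Hb9 control against 0.501 FPKM in A2 SMA MNs, 33.3-fold lower (log2 ratio -5.06, or -3.56 with a pseudocount of 1 FPKM). The table marks the *Lhx4* entry with the status FAIL, meaning that Cuffdiff did not complete its computation there, so this value is less secure. That status was carried by 14.0% of the 14926 genes. *Lhx3* was above *Lhx4* by 1.65-fold in Hb9 control MNs, and in A2 SMA MNs *Lhx4* was above *Lhx3* by 1.44-fold, both then under 1 FPKM.

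The LIM-homeodomain genes as a group were at least 2-fold lower in 4 of 4 cases, with a median log2 ratio of -4.62, or -4.33 relative to the median gene. Their summed level was 159 FPKM in Hb9 control against 7.95 FPKM in A2 SMA MNs, a 20.0-fold difference. The balance of Isl and Lhx transcripts also differed between the genotypes in these values. The summed level of *Isl1* and *Isl2* was 2.59 times that of *Lhx3* and *Lhx4* in Hb9 control MNs and 8.36 times in A2 SMA MNs. For *Isl1* over *Lhx3* the ratio was 3.91 in Hb9 control MNs and 17.1 in A2 SMA MNs. These ratios rest on Lhx levels under 1 FPKM in A2 SMA MNs. With a pseudocount of 1 FPKM the log2 ratio of *Isl1* (-3.97) lay between those of *Lhx3* (-4.41) and *Lhx4* (-3.56).

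*Mnx1* encodes a homeodomain factor without LIM domains that is expressed in MNs, and is the gene whose promoter drives the reporter used for sorting. The locus on chr5:29799578-29805059 was at 41.2 FPKM in Hb9 control against 44.2 FPKM in A2 SMA MNs. On the log2 scale the ratio was 0.10, or 0.39 relative to the median gene, and 71.0% of genes had a lower ratio. Because cells of both genotypes were collected by a reporter of this gene, the similar *Mnx1* levels are not independent of the way the cells were chosen. *Mnx1* was 0.381 times *Isl1* in Hb9 control MNs and 7.42 times *Isl1* in A2 SMA MNs. It was the 4th highest of the 9 genes in Hb9 control MNs and the 2nd highest in A2 SMA MNs.

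**Figure D2:**
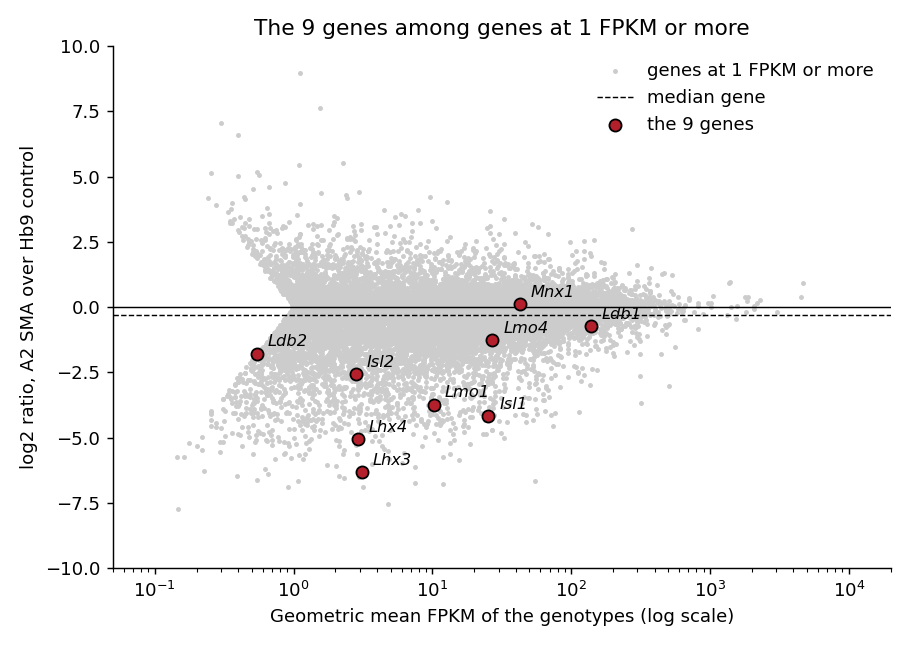
Log2 ratio of A2 SMA over Hb9 control against the geometric mean FPKM of the genotypes (log axis) for 14926 genes that reached 1 FPKM (grey) and the 9 genes (red, labelled); the dashed line is the median gene at -0.29. *Lhx3* and *Lhx4* lie at the lower edge of the genes at -6.31 and -5.06, and *Mnx1* lies at 0.10.

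The LIM-only genes were also lower in A2 SMA MNs, by unequal amounts. *Lmo1*, on chr7:116282085-116318845, was at 37.3 FPKM in Hb9 control against 2.80 FPKM in A2 SMA MNs. On the log2 scale the ratio was -3.73 (13.3-fold), and 2.29% of genes had a lower one. *Lmo4*, whose protein competes with Lhx3 for Ldb in MNs, lies on chr3:143851494-143868184 and was at 41.8 FPKM in Hb9 control against 17.6 FPKM in A2 SMA MNs. Its ratio on the log2 scale of -1.25 (2.38-fold) became -0.96 relative to the median gene, which is under 2-fold. The LIM-only genes were at similar levels in Hb9 control MNs, where *Lmo4* was 1.12 times *Lmo1*, and apart in A2 SMA MNs, where *Lmo4* was 6.27 times *Lmo1*.

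*Ldb1*, the cofactor that bridges LIM factors, was the most abundant of the 9 genes in both genotypes. It was at 178 FPKM in Hb9 control against 108 FPKM in A2 SMA MNs, for a log2 ratio of -0.72 (1.65-fold), or -0.43 relative to the median gene. More than 9 in 10 genes lay below it, 96.6% in Hb9 control MNs and 93.2% in A2 SMA MNs. Its entry also has the status FAIL. The table places it on chr19:46107083-46147405, a span of 40323 bases against 16621 for the RefSeq gene, so transcripts of other genes in a merged locus cannot be told apart from *Ldb1*. For the other 8 genes the locus was 0.835 to 1.18 times as long as the RefSeq gene.

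*Ldb2*, its relative on chr5:44863372-45190946, was the lowest of the 9 genes in both genotypes. It was at 1.00 FPKM in Hb9 control against 0.293 FPKM in A2 SMA MNs, for a log2 ratio of -1.78 (3.43-fold). With a pseudocount of 1 FPKM that ratio was -0.63, which is under 2-fold, so the size for this low gene depends on how low values are treated. *Ldb1* exceeded *Ldb2* by 178-fold in Hb9 control MNs and by 368-fold in A2 SMA MNs, and nearly all of the Ldb level was therefore that of *Ldb1*.

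FPKM is scaled to length, so levels can be set against each other within a genotype. LIM-homeodomain transcripts summed to 0.887 times the Ldb transcripts in Hb9 control MNs and to 0.0735 times in A2 SMA MNs, a 12.1-fold difference (-3.59 on the log2 scale) that does not depend on the scaling between genotypes. The Ldb sum is nearly all *Ldb1*, with its status FAIL and long locus. With a pseudocount of 1 FPKM the difference was -3.05 on the log2 scale. Without entries of status FAIL it was -2.48, but that changes both sums. It takes *Lhx4* out of the LIM-homeodomain sum and leaves *Ldb2* (1.00 and 0.293 FPKM) alone as the Ldb gene. Lmo transcripts summed to 0.441 times the Ldb transcripts in Hb9 control MNs and to 0.188 times in A2 SMA MNs, a 2.34-fold difference. LIM-homeodomain transcripts were thus 2.01 times the Lmo transcripts in Hb9 control MNs and 0.391 times in A2 SMA MNs. The order of these groups turned from LIM-homeodomain above Lmo to Lmo above LIM-homeodomain.

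**Figure D3:**
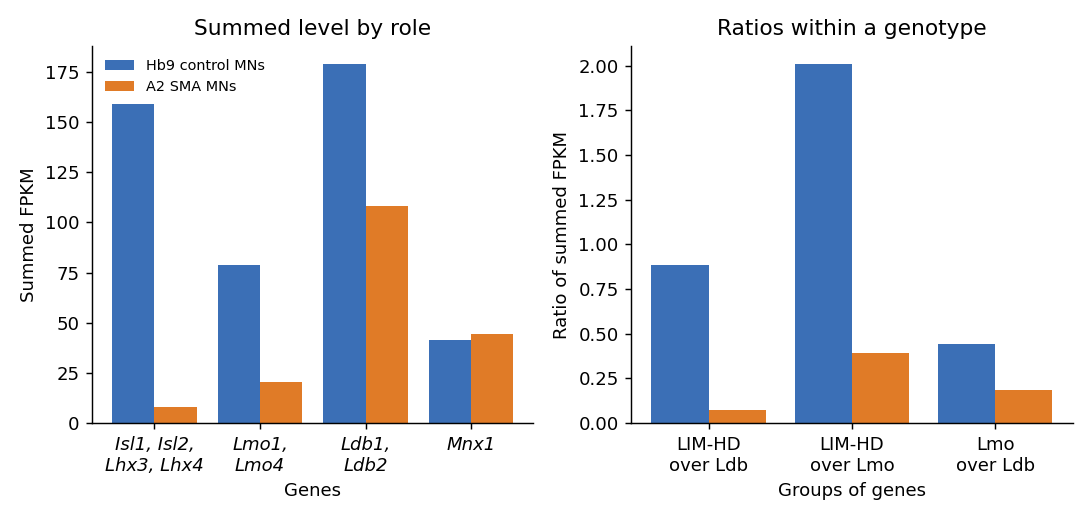
Left, summed FPKM of the genes of each role (linear axis from 0) in Hb9 control and A2 SMA MNs; right, ratios of these sums within a genotype, where LIM-HD is the 4 LIM-homeodomain genes. Bars are single values without error. The LIM-homeodomain sum goes from 159 to 7.95 FPKM and the Ldb sum from 179 to 108 FPKM, and LIM-HD over Lmo from 2.01 to 0.391.

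In Hb9 control MNs the order of levels was *Ldb1*, *Isl1*, *Lmo4*, *Mnx1*, *Lmo1*, *Lhx3*, *Lhx4*, *Isl2* and *Ldb2*. In A2 SMA MNs it was *Ldb1*, *Mnx1*, *Lmo4*, *Isl1*, *Lmo1*, *Isl2*, *Lhx4*, *Lhx3* and *Ldb2*. The spread over samples is not known, so neighbours in these orders, such as *Lmo4* and *Mnx1* at 41.8 and 41.2 FPKM in Hb9 control MNs, cannot be told apart.

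The genes whose levels lay nearest to *Isl1*, *Lhx3* and *Mnx1* were found by the Euclidean distance of their log2 FPKM values over the 2 genotypes. Nearest to *Isl1* were *Rfx4* (107 and 5.41 FPKM in Hb9 control and A2 SMA MNs, distance 0.137), *Apba2* (115 and 6.62 FPKM, distance 0.180) and *Stmn3* (92.0 and 5.47 FPKM, distance 0.262). The genes near *Lhx3* included the noncoding *C130071C03Rik* in a locus with *Mir9-2* (29.4 and 0.462 FPKM, distance 0.418) and the glycine receptor gene *Glra1* (34.7 and 0.291 FPKM, distance 0.420). Nearest to *Mnx1* were *Cdc25a* (41.3 and 44.1 FPKM, distance 0.00487), *Ube3c* (41.2 and 43.9 FPKM, distance 0.00748) and *Gm10094* (41.8 and 44.1 FPKM, distance 0.0219). *Ube3c* lies on the same chromosome as *Mnx1*, with 90699 bases between their loci. With 2 values per gene, a small distance says only that the levels are alike in both genotypes.

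Lists of related genes were described in the same way, over every listed gene above 0 FPKM in both genotypes. Without a limit on FPKM, 24.5% of 20595 genes were at least 2-fold lower in A2 SMA MNs and 8.41% at least 2-fold higher, with a median log2 ratio of -0.31. The other LIM-homeodomain genes had a wide range of ratios. Of 8 genes, 5 reached 1 FPKM in either genotype, 2 were at least 2-fold lower and 1 at least 2-fold higher. The higher one, named after its values were seen, was *Lhx8* at 0.195 and 0.496 FPKM, which is not among the 5. The median log2 ratio of the 8 was 0.17, but at a limit of 5 FPKM in either genotype, which leaves the 3 genes named next, it was -4.31. *Lhx1*, a factor of lateral motor column MNs and of several interneurons, was at 21.2 FPKM in Hb9 control against 0.696 FPKM in A2 SMA MNs (log2 ratio -4.93). Its relative *Lhx5*, an interneuron factor, was at 5.39 FPKM in Hb9 control against 0.272 FPKM in A2 SMA MNs (log2 ratio -4.31). *Lmx1b*, which marks dorsal interneurons and serotonergic neurons, was at 13.0 and 12.3 FPKM, with a log2 ratio of -0.08 that becomes 0.21 relative to the median gene. Its entry has the status FAIL.

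Other partners of the LIM complex had a median nearer to 0 than that of the LIM-homeodomain members, with a wide range. Of 6 genes, 3 were at least 2-fold lower and 0 at least 2-fold higher, with a median log2 ratio of -0.69 (-0.40 relative to the median gene). That median was -1.38 without entries of status FAIL and -1.03 at a limit of 5 FPKM in either genotype, both past 2-fold. *Ssbp3*, which binds and stabilizes Ldb1, was at 439 FPKM in Hb9 control against 215 FPKM in A2 SMA MNs. Its ratio on the log2 scale of -1.03 is -0.74 relative to the median gene, under 2-fold. *Ssbp4* was at 77.9 and 85.4 FPKM, and *Rlim*, the ubiquitin ligase that targets Ldb and LIM factors, was at 30.4 and 35.2 FPKM (log2 ratios 0.13 and 0.21). Both entries have the status FAIL. The other genes at least 2-fold lower, named after their values were seen, were *Ssbp2* at 18.2 and 5.47 FPKM (log2 ratio -1.73) and the LIM-only gene *Lmo3* at 6.75 and 0.277 FPKM (log2 ratio -4.61).

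Factors that act before the LIM code, in MN progenitors, were mostly lower as well. Of 7 genes, 6 were at least 2-fold lower and 0 higher, with a median log2 ratio of -4.40. *Nkx6-1*, a ventral progenitor factor that is also kept in some MNs, was at 158 FPKM in Hb9 control against 7.46 FPKM in A2 SMA MNs (log2 ratio -4.40). *Neurod4* was at 49.4 and 1.57 FPKM (log2 ratio -4.97), and *Nkx6-2* at 40.8 and 2.39 FPKM (log2 ratio -4.10). The following 3 genes were chosen after their values were seen. *Olig2*, the factor that defines the MN progenitor domain, was at 32.1 FPKM in Hb9 control against 0.704 FPKM in A2 SMA MNs. *Neurog2*, a proneural factor that works with the Isl1 and Lhx3 complex, was at 19.9 and 0.225 FPKM. *Pax6* was the exception, at 22.4 and 21.4 FPKM, with a log2 ratio of -0.07 that is above 0 relative to the median gene.

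Cholinergic genes are targets of the Isl1 and Lhx3 complex. Of the 5 listed, *Slc18a3* had no entry, and 4 of 4 were at least 2-fold lower, with a median log2 ratio of -3.15, or -2.06 with a pseudocount of 1 FPKM (3 of the 4 reached 1 FPKM). *Chat*, which makes acetylcholine, was at 15.5 FPKM in Hb9 control against 0.344 FPKM in A2 SMA MNs, for a log2 ratio of -5.49. *Ache* (a locus with *Ufsp1*) was at 19.7 and 4.87 FPKM, and *Slc10a4* (a locus with *Gm15847*), a vesicular protein of cholinergic neurons, at 5.38 and 0.292 FPKM.

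Genes of motor columns had ratios on both sides of 0. Of 7 genes, 1 was at least 2-fold lower and 1 at least 2-fold higher, with a median log2 ratio of 0.30. *Etv4*, a motor pool factor that is also expressed outside neurons, was at 21.3 FPKM in Hb9 control against 59.8 FPKM in A2 SMA MNs (log2 ratio 1.49). *Foxp1* (a locus with *Eif4e3*), a limb motor column factor, was at 47.1 and 34.9 FPKM (log2 ratio -0.43), and *Aldh1a2*, a retinoic acid synthesis enzyme of the same columns, was at 11.1 and 3.44 FPKM (log2 ratio -1.69).

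Other cell types use the same LIM factors, and their markers were present in the sorted cells. V2 interneurons express *Lhx3* and *Lhx4* without *Isl1*. Of 7 V2 markers, 6 were at least 2-fold lower in A2 SMA MNs and 0 higher, with a median log2 ratio of -4.10 (-1.52 with a pseudocount of 1 FPKM) and a summed level of 63.4 FPKM in Hb9 control against 13.4 FPKM in A2 SMA MNs. *Gata2* was at 20.7 and 4.0 FPKM (log2 ratio -2.37), and *Gata3*, in a locus with *9230102O04Rik*, at 15.8 and 4.86 FPKM (log2 ratio -1.70). The part of V2 cells in the *Lhx3* and *Lhx4* values was not tested.

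*Isl1* is also expressed in sensory neurons, dI3 interneurons and cranial MNs. Of 6 markers of these cells, 4 were at least 2-fold lower and 0 higher, with a median log2 ratio of -3.11 and a summed level of 194 FPKM in Hb9 control against 18.7 FPKM in A2 SMA MNs. The cranial MN factor *Phox2a* was at 64.4 and 3.94 FPKM. *Tbx20*, another cranial MN factor, was at 20.3 and 1.52 FPKM. Ratios nearer to 0 or above it were also present in the list, in genes named after their values were seen. *Pou4f1*, a sensory neuron factor, was at 9.06 and 5.34 FPKM (log2 ratio -0.76), and *Tlx3* was at 0.407 and 0.678 FPKM (log2 ratio 0.74, or 1.03 relative to the median gene). The part of these cells in the *Isl1* value was not tested.

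The label of the cells as MNs was set against markers of neurons and of undifferentiated cells. All 8 pan-neuronal genes with an entry (*Tubb3* and *Map2* had none) were at least 2-fold lower in A2 SMA MNs, with a median log2 ratio of -3.77 (-3.13 with a pseudocount of 1 FPKM) and a sum of 843 FPKM in Hb9 control against 113 FPKM in A2 SMA MNs. The 3 highest were *Stmn2* (242 and 78.0 FPKM, status FAIL), *Gap43* (241 and 11.9 FPKM) and *Elavl4* (199 and 11.3 FPKM). All 10 pluripotency genes were at least 2-fold higher in A2 SMA MNs, with a median log2 ratio of 2.54 and a sum of 305 FPKM in Hb9 control against 1954 FPKM in A2 SMA MNs. *Pou5f1* was at 98.3 and 775 FPKM, *Utf1* (status FAIL) at 59.8 and 357 FPKM, and *Nanog* at 41.4 and 236 FPKM. These markers differed between the genotypes alongside the LIM code, and their part in the LIM factor values was not tested. None of the listed genes with an entry was at 0 in either genotype.

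**Figure D4:**
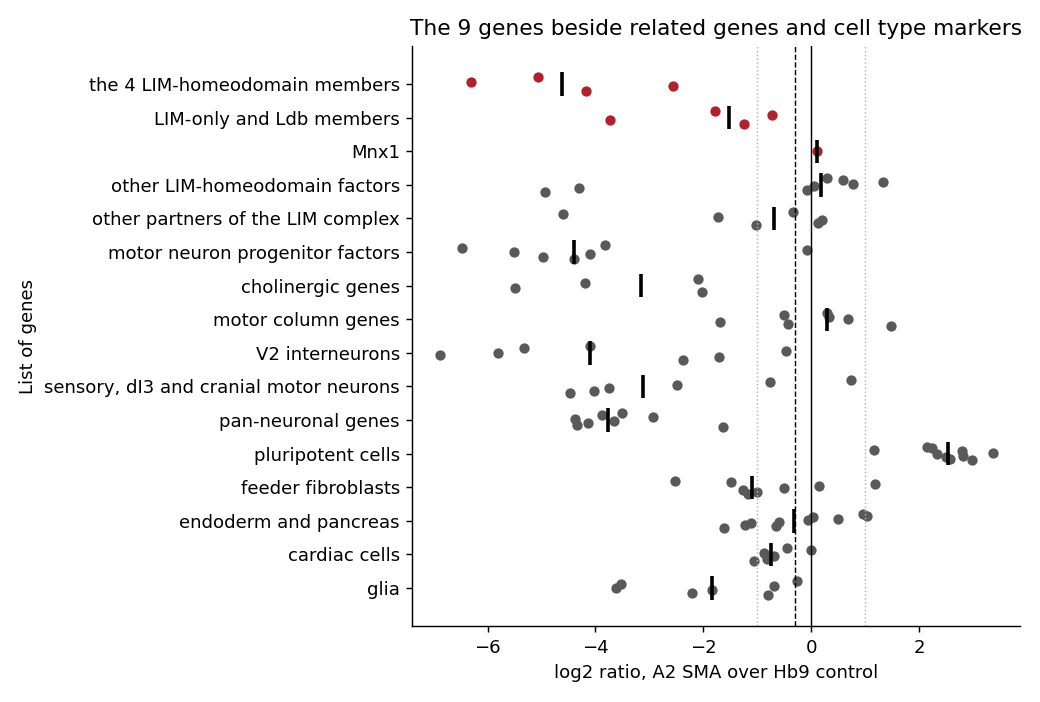
Log2 ratio of A2 SMA over Hb9 control for the 9 genes (red) and for each gene of 13 lists of related genes and cell type markers (grey), with list medians as black bars; the dashed line is the median gene at -0.29 and the dotted lines are 2-fold. The LIM-homeodomain members have a median of -4.62, pan-neuronal genes -3.77 and pluripotency genes 2.54.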

How the data were processed

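RNA from FACS-purified Hb9 control and A2 SMA mESC-derived MNs (3 samples each) was sequenced from a single end. Per the study's methods and the submitters' processing notes, the authors checked reads with FastQC (0.10.1), trimmed them with cutadapt, mapped them to NCBI m37 with TopHat2 (2.04) and used Cufflinks and Cuffdiff, whose versions are not given in the sources used here. The deposited FPKM values are 1 per genotype and locus, already scaled by the authors to length and fragments mapped. Differences in scaling, in the merging of loci and in the mixture of sorted cells can all move a ratio. Whether the samples were separate cultures is not stated. The deposited table also holds the authors' fold change, test statistic, p and q for each locus, which were not used. The status was read only as a label of quality.

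The table has 41945 entries, of which 37261 have a symbol. Calculations used Python 3.11.15, numpy 2.4.6 and pandas 2.3.3 and drawn with matplotlib 3.10.9. A gene was counted as lower or higher from a 2-fold ratio on, read beside the share of all genes past it. Genes named are the 9 members, at most 3 of each list with the highest FPKM, the 3 nearest genes to *Isl1*, *Lhx3* and *Mnx1*, and *Smn1*, and others are said to be chosen after their values were seen. Some genes that this rule names are not reported here. The members and lists were chosen with earlier results of these data known. Alternatives were pseudocounts of 0.1 and 1 FPKM, scaling to the median gene, the upper quartile or *Gusb*, *Pgk1* and *Rpl13a*, other treatment of loci with several symbols or entries, leaving out the status FAIL, limits of 1.5-fold and 4-fold, and no limit or 5 FPKM in place of 1 FPKM. The script was tested on simulated data. Promoters came from RefSeq (GRCm38.p6), and the 30 bases after 11 of the 14 windows were found in a GENCODE transcript of the same gene.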

Additional observations from a re-analysis of the deposited data

How the results depend on the processing

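The number of genes of the LIM code at least 2-fold lower in A2 SMA MNs was 7, and ranged from 5 (at 4-fold) to 8 (at 1.5-fold) under the alternatives tried, with 0 higher under each. *Lmo4* lost the 2-fold call when centred on the median gene or scaled to the upper quartile (-0.96 each) and *Ldb2* with a pseudocount of 1 FPKM (-0.63). Over the scalings, pseudocounts and treatments of entries, the log2 ratio ranged from -6.31 to -4.41 for *Lhx3*, from -5.06 to -3.56 for *Lhx4*, from -4.18 to -3.89 for *Isl1* and from 0.10 to 0.39 for *Mnx1*. Leaving out the status FAIL removed *Lhx4* and *Ldb1* and left 6 genes lower. Keeping only loci with 1 symbol removed *Isl2* and also left 6 genes lower. The median of the other LIM-homeodomain genes turned from 0.17 to -4.31 at a limit of 5 FPKM in either genotype, where fewer of the 8 genes remained. The median of other LIM complex partners went from -0.69 to -1.38 without the status FAIL. No paired analysis was possible because the table gives 1 value per genotype, and no replicate could be left out for the same reason. The table does not give the reads behind a value, and no counting error was computed, so large ratios against values under 1 FPKM, such as those of *Lhx3*, *Lhx4* and *Ldb2* in A2 SMA MNs, are uncertain in size.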

Other observations

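Markers of feeder fibroblasts, of endoderm and pancreas, and of cardiac cells had median log2 ratios of -1.09, -0.32 and -0.75. The LIM-homeodomain members had a median of -4.62. Every list described here, neural ones included, had a median nearer to 0 than that. Against a background of 24.5% of genes lower and 8.41% higher, feeder fibroblast genes were at least 2-fold lower in 5 of 8 cases and higher in 1, with a median log2 ratio of -1.09 that is -0.80 relative to the median gene. Their highest members were the collagen genes *Col1a2* (20.1 FPKM in Hb9 control against 8.93 FPKM in A2 SMA MNs), *Col1a1* (18.9 and 9.41 FPKM, status FAIL) and *Col3a1* (15.9 and 6.57 FPKM). All 3 are under 2-fold relative to the median gene.

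*Isl1* and *Mnx1* are also expressed in endoderm and pancreas, and *Isl1* in the heart. Of 10 endoderm and pancreas genes, 3 were at least 2-fold lower and 1 at least 2-fold higher, with a median log2 ratio of -0.32, close to that of the median gene, and of -1.11 over those that reached 5 FPKM in either genotype. Their summed level was 99.9 FPKM in Hb9 control against 45.7 FPKM in A2 SMA MNs. *Foxa2*, also a floor plate factor, was at 55.9 and 18.2 FPKM, *Gata4* (status FAIL) at 16.9 and 10.7 FPKM and *Foxa1* at 8.82 and 3.76 FPKM, the last under 2-fold relative to the median gene. Of 6 cardiac genes 2 reached 1 FPKM in either genotype and 1 was at least 2-fold lower, with a sum of 8.16 FPKM in Hb9 control against 4.39 FPKM in A2 SMA MNs. *Myl7* was at 4.97 and 2.38 FPKM, under 2-fold relative to the median gene, *Nkx2-5* at 1.40 and 0.796 FPKM and *Mef2c* at 0.761 and 0.475 FPKM.

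Of 7 glial genes, 4 were at least 2-fold lower and 0 higher, with a median log2 ratio of -1.84 (-0.74, under 2-fold, with a pseudocount of 1 FPKM) and a sum of 53.5 FPKM in Hb9 control against 20.0 FPKM in A2 SMA MNs. The myelin gene *Mbp* was at 18.0 and 10.3 FPKM, and *Aldh1l1*, an astrocyte enzyme, at 13.9 and 3.03 FPKM. The part of any of these cells in the *Isl1* or *Mnx1* values was not tested.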
